A study of Mus musculus with 7 samples.

Results

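The proteasome was followed in dystrophic mouse hearts through 35 genes that encode its constitutive parts, namely Psma1 to Psma7, Psmb1 to Psmb7, Psmc1 to Psmc6, 11 Psmd genes and the activators Psme1 to Psme4. A gene was measured by the probe sets that the array's annotation assigns to it alone, and where it had several, the brightest on average across the hearts was taken. By this rule 34 of the 35 genes were measured, among 18193 genes in all. Psme2 had no probe set of its own, since the only one that detects it also detects its near-copy Psme2b.

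RNA from whole hearts of 7 male mdx mice, which lack dystrophin, was hybridized to Affymetrix mouse arrays, 1 heart per array, at 7 months of age. In 4 of these mice (mdx HRTΔIKKβ) a Cre recombinase driven by the promoter of Myh6, the alpha myosin heavy chain gene, deleted the floxed gene for IKKβ, the kinase that activates NF-κB. The other 3 (mdx IKKβf/f) were littermates of the same age that carried the floxed gene and no Cre. Cre driven by Myh6 acts in cardiomyocytes, while the RNA came from every cell of the heart, so IKKβ remained in the other cells of both groups. All values are log2 intensities after robust multi-array average (RMA) normalization, a difference of means is mdx HRTΔIKKβ minus mdx IKKβf/f, and ± gives its standard error from limma, a linear model fitted to all 45037 probe sets. Hearts without mdx were not analysed here.

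The proteasome is the large protease that degrades proteins tagged with ubiquitin. Its barrel-shaped core is built of outer rings of Psma (alpha) subunits, which gate the entry, and inner rings of Psmb (beta) subunits, of which Psmb5, Psmb6 and Psmb7 cut the substrate. A cap on the core holds a base, where 6 ATPases of the Psmc family unfold the substrate, and a lid, where Psmd14 removes the ubiquitin chain, and Psme proteins can bind the core as alternative caps. In heart muscle the proteasome removes worn sarcomeric and oxidized proteins, and the activation of NF-κB itself needs it, because the inhibitor that IKKβ phosphorylates is degraded there.

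The arrays were closely alike, with medians of 6.73 to 6.75 and correlations of 0.9875 to 0.9959 between any pair. Markers of ventricular cardiomyocytes were among the brightest probe sets (10 of 10 measured, means of 13.31 to 15.05). The targeted gene, Ikbkb, was at 8.44, 8.86, 8.75 and 8.82 in mdx HRTΔIKKβ hearts, against 8.82, 9.03 and 8.86 in mdx IKKβf/f hearts (difference -0.18 ± 0.11, limma adjusted p = 0.801), and the groups overlapped. Without mdx HRTΔIKKβ replicate 1 the difference was -0.09, and with probe sets averaged -0.06. Its 4 dimmer probe sets differed by -0.08 to 0.02, and where the probes lie relative to the floxed exon was not examined. By qPCR on whole-heart RNA, the study itself reported reduced Ikbkb in mdx HRTΔIKKβ hearts. Other cell types varied between hearts. The lymphocyte marker score (10 of 11 genes measured), the mean of values centred on each gene's mean over the hearts, was 0.08 to 1.26 in mdx HRTΔIKKβ hearts and -0.95 to -0.17 in mdx IKKβf/f hearts. The atrial score (8 of 8 genes) was -0.32 to 1.15 in mdx HRTΔIKKβ hearts and -1.83 to 0.46 in mdx IKKβf/f hearts, and mdx IKKβf/f replicate 1 stood apart by a fast skeletal muscle score of 4.17. The neutrophil score (6 of 7 genes) was 3.22 in mdx HRTΔIKKβ replicate 2 and 3.09 in mdx IKKβf/f replicate 1, and below 0 in the other 5 hearts, and the adipocyte score (4 of 6 genes) was highest in mdx HRTΔIKKβ replicate 2, at 1.49. In such bulk RNA, fewer cells of a type and less RNA per cell cannot be told apart.

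The upstream regions of 4 members are given first, because these genes frame what follows: Psmb5 and Psmb6 encode catalytic subunits and carry, close to their start, the core of an antioxidant response element, and Psma7 and Psmc1 are the members whose groups did not overlap. In each, 200 bases up to the transcription start are shown as in RefSeq (GRCm38.p6), 5′ to 3′ on the gene's strand, at chr14:54617996-54618195 (minus strand) for Psmb5, chr11:70525157-70525356 (plus) for Psmb6, chr2:180042465-180042664 (minus) for Psma7 and chr12:100110002-100110201 (plus) for Psmc1. Capitals mark the antioxidant response element core in Psmb5 and Psmb6 and a CCAAT box in Psma7 and Psmc1.
Psmb5: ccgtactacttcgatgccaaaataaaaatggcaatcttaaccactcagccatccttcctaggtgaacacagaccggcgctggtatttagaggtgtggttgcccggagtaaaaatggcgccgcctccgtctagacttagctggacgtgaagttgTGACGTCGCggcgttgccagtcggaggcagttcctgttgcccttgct
Psmb6: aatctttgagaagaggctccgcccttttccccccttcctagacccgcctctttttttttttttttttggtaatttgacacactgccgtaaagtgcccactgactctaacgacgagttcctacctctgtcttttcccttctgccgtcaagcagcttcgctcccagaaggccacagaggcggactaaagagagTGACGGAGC
Psma7: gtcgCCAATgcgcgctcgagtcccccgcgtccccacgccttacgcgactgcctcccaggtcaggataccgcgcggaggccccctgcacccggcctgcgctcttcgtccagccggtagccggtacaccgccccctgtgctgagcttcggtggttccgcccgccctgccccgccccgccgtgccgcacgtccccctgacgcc
Psmc1: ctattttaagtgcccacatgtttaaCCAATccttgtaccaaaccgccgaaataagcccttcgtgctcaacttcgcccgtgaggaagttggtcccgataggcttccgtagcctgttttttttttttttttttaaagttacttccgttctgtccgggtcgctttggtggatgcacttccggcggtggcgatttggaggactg

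The core of the antioxidant response element (TGACNNNGC) is the kind of sequence that the transcription factors Nfe2l1 and Nfe2l2 bind, and Nfe2l1 is the factor known to raise proteasome genes when the proteasome is impaired. Searched on both strands over 250 bases before and 50 after the start, it was found in 5 of 32 promoter entries of the members (15.6%), against 12.4% of all 32851 promoters. These 5 belonged to Psmb5, Psmb6, Psmc6, Psmd12 and Psme4. A CCAAT box (CCAAT) was in 11 of the 32 entries (34.4%), against 37.4% of all promoters, and a loose core of the kappa B site that NF-κB binds (GGGANNNNCC) in 9 of 32 (28.1%), against 20.7%. The entries covered 29 of the 35 genes, each motif was counted on its own, and within the members no match of one motif overlapped a match of another. A match describes letters only, and no binding was measured here.

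RNA of the constitutive proteasome subunits in mdx HRTΔIKKβ hearts was close to that in mdx IKKβf/f hearts. No member passed an adjusted p of 0.05 (0 of 34, smallest adjusted p 0.796, background 0% of all probe sets). At an unadjusted limma p under 0.05, 0 members were higher (background 3.25% of all genes) and 2 were lower (background 2.95%), Psmc1 and Psma7. The same pair made up the members whose groups did not overlap, 0 higher (background 3.05%) and 2 lower (background 2.62%). Differences ran only from -0.19 for Psmc1 to 0.19 for Psmd13, with a median of -0.026, against -0.0056 over all genes. More members had the lower mean in mdx HRTΔIKKβ hearts than the higher one: 10 of 34 were higher (29.4%), against 47.7% of all genes. That count was 17 of 34 and the median 0.0015 without mdx IKKβf/f replicate 2, against 51.7% and 0.0036 over all genes in that setting. No member was then lower at an unadjusted p under 0.05, nor without mdx IKKβf/f replicate 1. The share of all genes lower at that p was not counted with a heart left out, so this has no background beside it.

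A larger share of the members than of all genes had a narrow interval around the difference. The 95% limma interval of the difference, not adjusted for the number of genes, lay within 1.2-fold either way (0.263 on the log2 scale) for 31 of 34 members (91.2%), against a background of 50.5% of all genes and 56.0% of the 3209 genes with a mean of at least 10. Psma7, Psmc1 and Psmd13 were the members whose interval crossed that bound. Within 1.5-fold either way lay 34 of 34 members, against a background of 91% of all genes. The spread between hearts of one group was small as well: the median residual SD was 0.062 over the members (0.024 to 0.18), against 0.11 over all genes and 0.095 over the genes with a mean of at least 10.

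**Figure D1:**
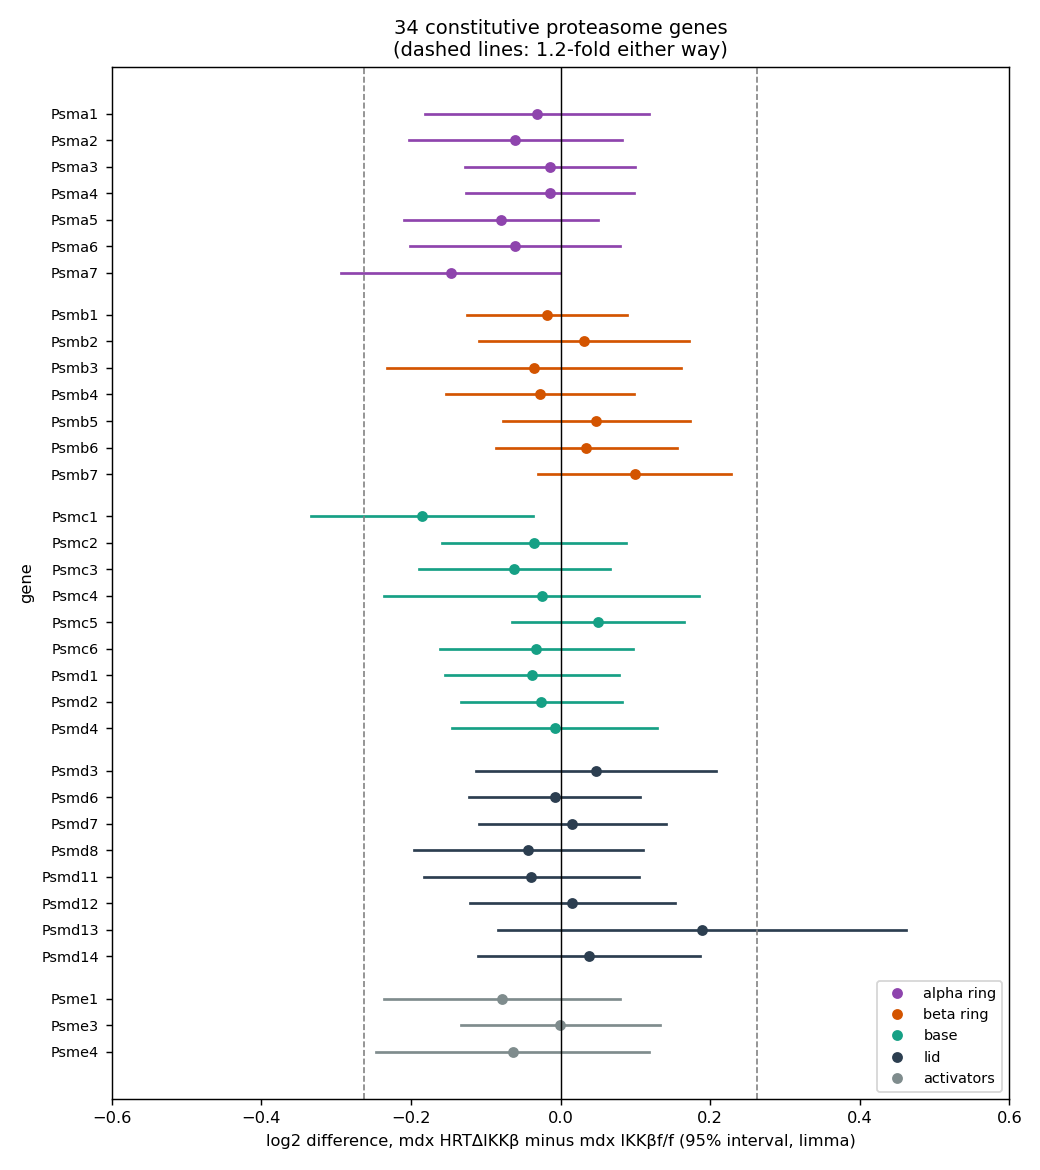
Log2 difference between mdx HRTΔIKKβ (n = 4) and mdx IKKβf/f (n = 3) hearts for each of the 34 measured genes (points) with its 95% limma interval (lines), coloured and grouped by role, with dashed lines at 1.2-fold either way. All 7 alpha ring points lie below 0, and the intervals of Psma7, Psmc1 and Psmd13 cross a dashed line.

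The alpha ring, which forms the gate of the core, had a lower mean in mdx HRTΔIKKβ hearts for 7 of 7 genes (median -0.061, range -0.15 to -0.014), and only Psma7 reached an unadjusted p under 0.05. All 17 probe sets of these genes, the 7 above among them, gave a lower mean, where 52.4% of all probe sets did. They read the same genes in the same hearts, so they are not 17 independent readings. Some were near the floor of the array, among them probe sets of Psma6 and Psma1 with means of 4.04 and 4.56 over the 7 hearts. Psma7 was at 11.58, 11.63, 11.68 and 11.49 in mdx HRTΔIKKβ hearts, against 11.73, 11.81 and 11.70 in mdx IKKβf/f hearts. Every mdx HRTΔIKKβ heart was below every mdx IKKβf/f heart, though replicate 3 of each group lay close to the other (difference -0.15 ± 0.06, limma unadjusted p = 0.0498, adjusted p = 0.796). A dimmer probe set of Psma7 gave -0.13 ± 0.06 (limma unadjusted p = 0.071), with 1 mdx HRTΔIKKβ heart above the lowest mdx IKKβf/f heart.

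Psma5 was at 11.49, 11.37, 11.45 and 11.42 in mdx HRTΔIKKβ hearts and at 11.50, 11.58 and 11.45 in mdx IKKβf/f hearts, overlapping groups with a difference of -0.08 ± 0.06. The other alpha ring genes lay closer together: Psma2 and Psma6 at -0.06 each, Psma1 at -0.03, and Psma3 and Psma4 at -0.01 each. Averaging probe sets gave -0.14 for Psma1 and -0.09 for Psma3. For Psma1, a pair of dimmer probe sets was lower at an unadjusted limma p of 0.042 and 0.049. The former, of a cross-hybridizing type, had means of 4.95 in mdx HRTΔIKKβ and 5.10 in mdx IKKβf/f hearts. The latter had means of 7.58 and 7.84, in the same order. The remaining dimmer probe set of Psma1 differed by -0.10 (limma unadjusted p = 0.516). The bright probe set of Psma1 was at 11.28 in mdx HRTΔIKKβ and 11.32 in mdx IKKβf/f hearts (limma unadjusted p = 0.638). Over all members, 4 of 77 probe sets were at an unadjusted limma p under 0.05, against 2735 of 45037 on the array. As a score over the ring, the hearts were at -0.022, 0.0001, -0.011 and -0.067 in the mdx HRTΔIKKβ group and at 0.0036, 0.10 and -0.0062 in the mdx IKKβf/f group. The groups overlapped, and mdx IKKβf/f replicate 2 alone stood well above the rest. Without it the median difference of the ring was -0.013, and Psma3 and Psma4 differed by 0.01 each, on the other side of 0.

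The beta ring, which holds the proteolytic sites, was split, with 4 of 7 genes higher and 3 lower in the mean and none at an unadjusted p under 0.05 (median 0.031, range -0.036 to 0.099). Psmb5, the chymotrypsin-like subunit, was at 12.39, 12.49, 12.34 and 12.45 in mdx HRTΔIKKβ hearts, against 12.37, 12.38 and 12.37 in mdx IKKβf/f hearts (difference 0.05 ± 0.05, limma unadjusted p = 0.400). The lowest and the highest Psmb5 values were both in the mdx HRTΔIKKβ group, on either side of mdx IKKβf/f hearts that were nearly equal. Psmb6, the caspase-like subunit, was at 12.00, 12.08, 11.99 and 11.99 in mdx HRTΔIKKβ hearts, against 11.95, 12.04 and 11.95 in mdx IKKβf/f hearts (difference 0.03 ± 0.05). In both groups replicate 2 was the high one, a number that pairs nothing in the design.

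Psmb7, the trypsin-like subunit, came nearest to a difference among the catalytic genes. It was at 12.66, 12.60, 12.56 and 12.54 in mdx HRTΔIKKβ hearts, against 12.56, 12.47 and 12.44 in mdx IKKβf/f hearts. The groups overlapped only through mdx IKKβf/f replicate 1 (difference 0.10 ± 0.06, 95% interval -0.03 to 0.23, limma unadjusted p = 0.114, adjusted p = 0.796). The intervals of Psmb5 and Psmb6 ended at 0.17 and 0.16, so that a rise of 1.2-fold lay outside both. The structural subunits Psmb1, Psmb2, Psmb3 and Psmb4 differed by -0.02, 0.03, -0.04 and -0.03, and Psmb4 by -0.08 with its probe sets averaged. The ring's median was on the other side of 0, at -0.014, when mdx IKKβf/f replicate 3 was left out.

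**Figure D2:**
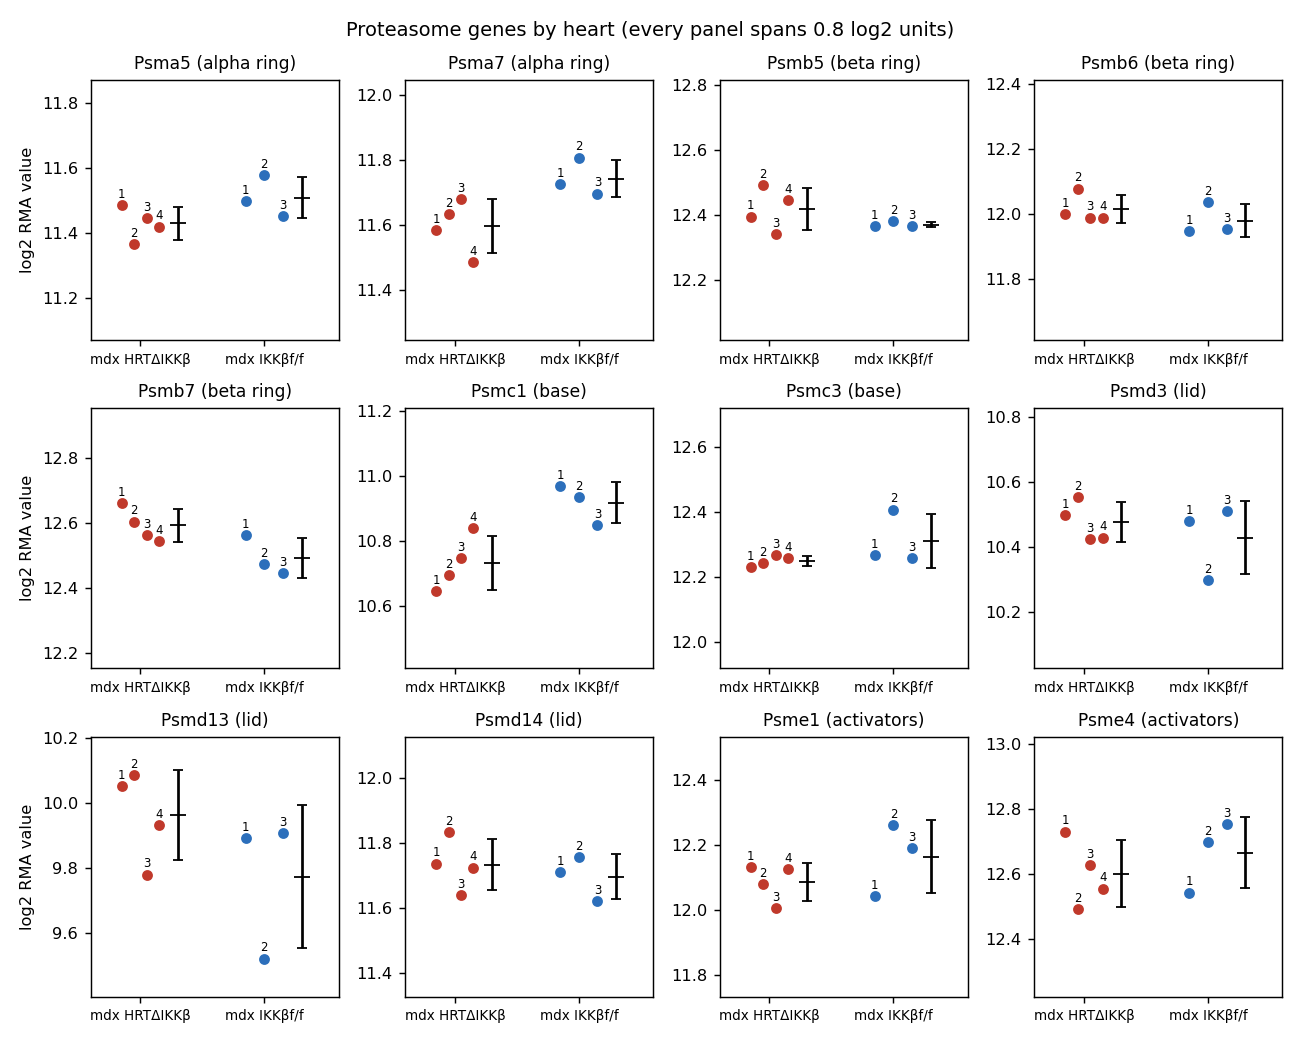
Log2 RMA value of 12 proteasome genes in each heart (points numbered by replicate; red, mdx HRTΔIKKβ, n = 4; blue, mdx IKKβf/f, n = 3), with the group mean and SD in black; every panel spans 0.8 log2 units. The groups separate for Psma7 and Psmc1 and overlap for the other 10 genes, and mdx IKKβf/f replicate 2 lies low for Psmd3 and Psmd13.

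In the base, where the ATPases pull substrates into the core, 8 of 9 genes had a lower mean in mdx HRTΔIKKβ hearts (median -0.033, range -0.19 to 0.05). Psmc1, an ATPase whose tail opens the gate of the core, was at 10.65, 10.70, 10.75 and 10.84 in mdx HRTΔIKKβ hearts, against 10.97, 10.94 and 10.85 in mdx IKKβf/f hearts. All 4 mdx HRTΔIKKβ hearts were below all 3 mdx IKKβf/f hearts, with mdx HRTΔIKKβ replicate 4 and mdx IKKβf/f replicate 3 within 0.01 of each other. The difference of -0.19 ± 0.06 is 0.879-fold (95% interval 0.793 to 0.974), with the smallest unadjusted limma p among the members (0.0205), and it did not pass adjustment over the array (adjusted p = 0.796). It ranged from -0.22 to -0.16 when 1 heart at a time was left out. The only other probe set of Psmc1 was near the floor of the array, with means of 4.23 in mdx HRTΔIKKβ and 4.33 in mdx IKKβf/f hearts.

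Psmc3, another gate-opening ATPase, was at 12.23, 12.24, 12.27 and 12.26 in mdx HRTΔIKKβ hearts, against 12.27, 12.41 and 12.26 in mdx IKKβf/f hearts (difference -0.06 ± 0.05). Here mdx IKKβf/f replicate 2 alone set the difference, which was -0.01 without it. The remaining ATPases Psmc2, Psmc4 and Psmc6 differed by -0.04, -0.03 and -0.03, and Psmc5 by 0.05, the 1 higher mean in the base. The second probe set of Psmc4, nearly as bright, gave 0.08. The scaffolds Psmd1 and Psmd2 differed by -0.04 and -0.03, and Psmd4, a receptor for ubiquitin chains, by -0.01. With probe sets averaged, Psmc4, Psmd2 and Psmd4 joined Psmc5 above 0 (0.03, 0.03 and 0.0017), while Psmc2 and Psmc6 were each at -0.06. The count of lower means thus depended on the probe sets used, while the base median was then -0.038. Scored together, the 9 genes were at -0.020, -0.008, -0.022 and -0.019 in mdx HRTΔIKKβ hearts, against 0.021, 0.044 and 0.0046 in mdx IKKβf/f hearts, without overlap. With Psmc1 left out, a choice made after its values were seen, the scores were -0.025 to 0.0057 in mdx HRTΔIKKβ hearts and 0.0005 to 0.034 in mdx IKKβf/f hearts, and the groups overlapped.

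The lid, which strips ubiquitin from substrates, had 5 of 8 genes with a higher and 3 with a lower mean (median 0.016, range -0.043 to 0.19), none at an unadjusted p under 0.05. That median was just below 0 under 3 alternatives, at -0.011 after a second quantile normalization, -0.0007 with probe sets averaged and -0.0015 without mdx IKKβf/f replicate 3. Psmd14, the deubiquitinase that must act before a substrate can enter, was at 11.74, 11.83, 11.64 and 11.72 in mdx HRTΔIKKβ hearts, against 11.71, 11.76 and 11.62 in mdx IKKβf/f hearts (difference 0.04 ± 0.06). The span of the mdx HRTΔIKKβ hearts covered all mdx IKKβf/f hearts but the lowest. Psmd7, the partner of Psmd14, differed by 0.02, and the scaffold subunits Psmd6, Psmd8, Psmd11 and Psmd12 by -0.01, -0.04, -0.04 and 0.02. With probe sets averaged, Psmd7 was at -0.05, on the other side of 0, and Psmd6 at -0.06. Psmd11 was at -0.02 with probe sets averaged and at 0.03, on the other side of 0, with cross-hybridizing ones left out.

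The lid also held the most variable member, the scaffold subunit Psmd13. It was at 10.05, 10.09, 9.78 and 9.93 in mdx HRTΔIKKβ hearts, against 9.89, 9.52 and 9.91 in mdx IKKβf/f hearts (difference 0.19 ± 0.12, 95% interval -0.08 to 0.46, limma unadjusted p = 0.147). Averaging the 4 probe sets of Psmd13 gave 0.05, and its dimmer ones differed by 0.09, -0.11 and 0.03. On the brightest, the low value was that of mdx IKKβf/f replicate 2, and without that heart the difference was 0.06. Psmd3, a further scaffold subunit, was at 10.50, 10.55, 10.43 and 10.43 in mdx HRTΔIKKβ hearts, against 10.48, 10.30 and 10.51 in mdx IKKβf/f hearts (difference 0.05 ± 0.07). The same heart was its lowest, and its difference was -0.02 without it. In mdx IKKβf/f replicate 2, 27 of 34 members were above their own mean over the hearts and 7 below it, and 4 were at their lowest there: Psmd3 and Psmd13 of the lid and Psmc5 and Psmd4 of the base.

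Of the activators, which bind the core in place of the cap, Psme1 and Psme4 had a lower mean in mdx HRTΔIKKβ hearts and Psme3 differed by less than 0.001 (median -0.064). This median was -0.027 when mdx HRTΔIKKβ replicate 2 was left out and -0.13 when mdx IKKβf/f replicate 1 was. Psme1, a subunit of the activator induced by interferon, was at 12.13, 12.08, 12.00 and 12.13 in mdx HRTΔIKKβ hearts, against 12.04, 12.26 and 12.19 in mdx IKKβf/f hearts (difference -0.08 ± 0.07). Psme4, the large nuclear activator, was at 12.73, 12.49, 12.63 and 12.55 in mdx HRTΔIKKβ hearts, against 12.54, 12.70 and 12.75 in mdx IKKβf/f hearts (difference -0.06 ± 0.08). The Psme4 difference was -0.14 with cross-hybridizing probe sets left out and -0.12 with its 6 probe sets averaged. The groups overlapped for Psme1 and for Psme4, and in both genes mdx IKKβf/f replicate 1 was the lowest of its group. The small Psme3 difference is that of its brightest probe set. Its dimmer ones differed by 0.18 (limma unadjusted p = 0.143) and -0.05, and averaging its 3 probe sets gave 0.04. The probe set shared by Psme2 and Psme2b was at 11.05, 11.04, 11.01 and 11.05 in mdx HRTΔIKKβ hearts, against 11.08, 11.09 and 11.12 in mdx IKKβf/f hearts. Its groups did not overlap, its difference was -0.06 ± 0.05 (limma unadjusted p = 0.236), and it cannot be assigned to either gene.

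The high and low values of the members gathered in particular hearts. The heart with the highest value was mdx IKKβf/f replicate 2 for 17 of 34 members (50.0%), against 21.1% of all genes and 21.3% of genes with a mean of at least 10. These 17 comprised 6 of 7 alpha ring genes, 3 beta ring, 3 base and 3 lid genes and 2 activators. Next came mdx HRTΔIKKβ replicate 2, the highest for 8 members (23.5%). This was near the share of all genes (19.5%) and of genes with a mean of at least 10 (24.7%). That heart also had the highest lymphocyte (1.26), neutrophil (3.22), adipocyte (1.49) and endothelial (0.21) scores. The part of these cells in the proteasome values was not tested. In contrast, mdx HRTΔIKKβ replicate 3 was the highest for 0 members and the lowest for 10 (29.4%, against 13.9% of all genes). The members share their hearts and arrays, so these counts are descriptions and carry no test.

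**Figure D3:**
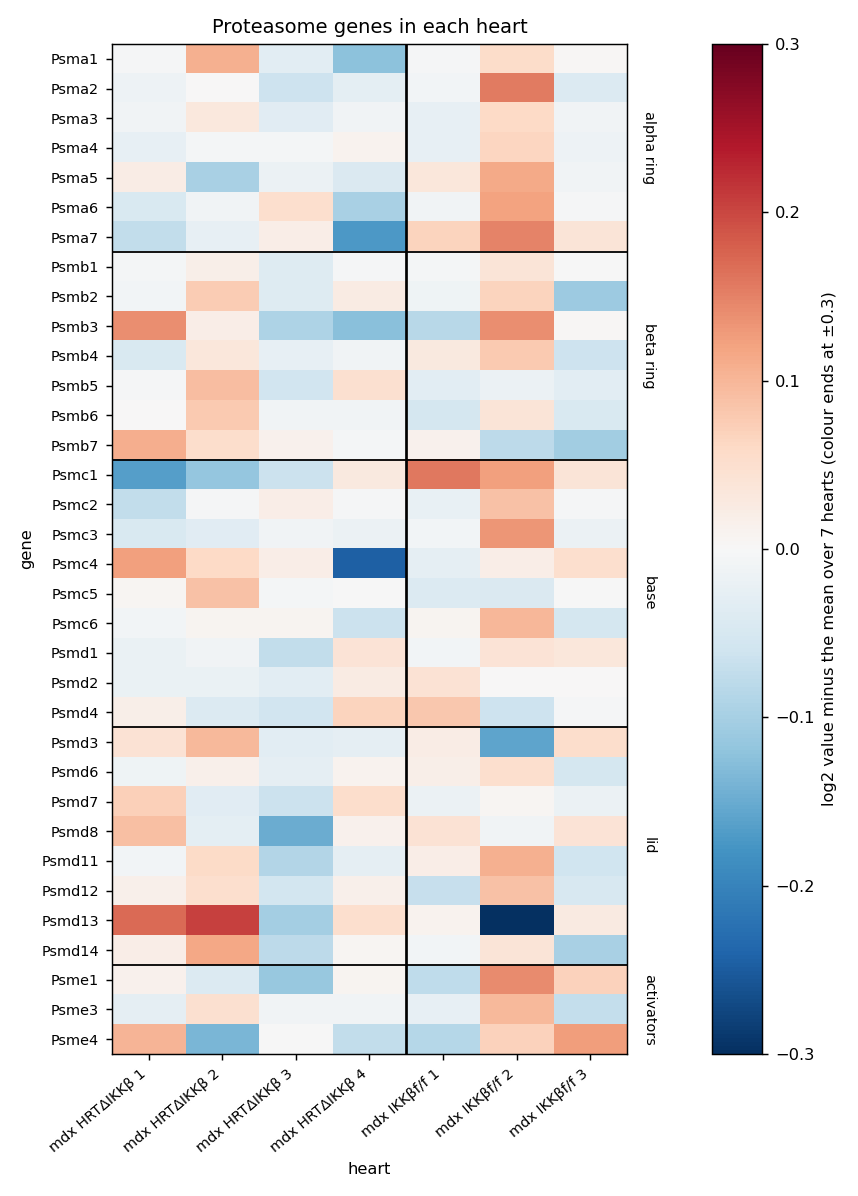
Log2 value of each of the 34 genes (rows, by role) in each heart (columns, mdx HRTΔIKKβ left of the line and mdx IKKβf/f right of it) minus the gene's mean over the 7 hearts, with colours ending at ±0.3. The column of mdx IKKβf/f replicate 2 is red for most genes and blue for 7, most deeply for Psmd3 and Psmd13, and Psmc1 is the row with the clearest step at the line.

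Averaged over the 34 genes, the score was 0.0097, 0.019, -0.037 and -0.021 in mdx HRTΔIKKβ hearts, against -0.0029, 0.043 and -0.011 in mdx IKKβf/f hearts. The groups overlapped, and the whole span was below 0.1 on the log2 scale. The heart with the highest proteasome score, mdx IKKβf/f replicate 2, also had the lowest score of all hearts for 6 other cell types: atrial (-1.83), macrophage and monocyte (-0.32), neutrophil (-1.53), fibroblast (-0.34), endothelial (-0.19) and adipocyte (-0.95). Its ventricular cardiomyocyte score was 0.0031, within a range of -0.016 to 0.0065 in mdx HRTΔIKKβ hearts and -0.022 to 0.034 in mdx IKKβf/f hearts. The part of these cell types in the proteasome values was not tested.

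**Figure D4:**
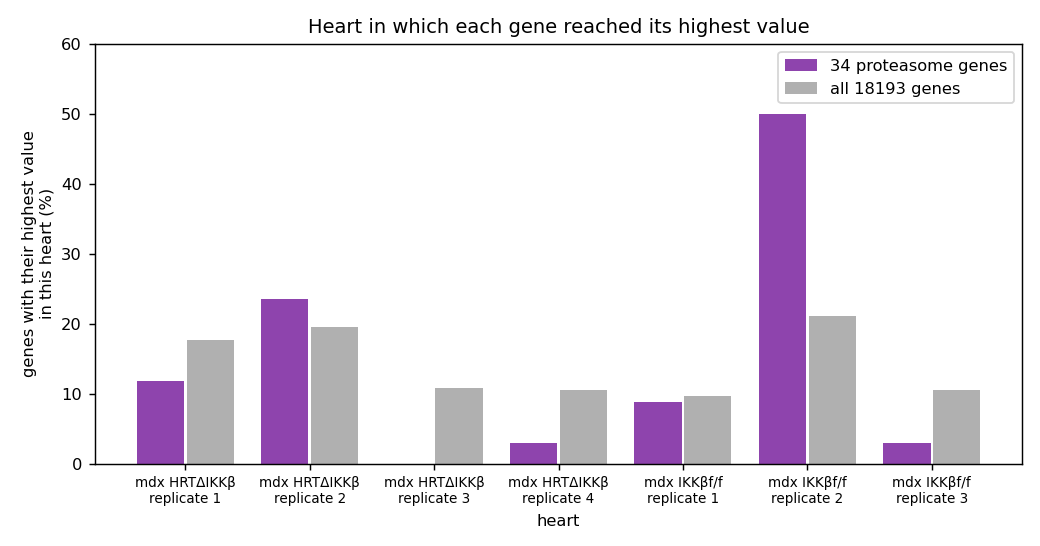
Share of the 34 proteasome genes (purple) and of all 18193 genes (grey) that reached their highest value in each heart, in percent. The tallest bar is that of mdx IKKβf/f replicate 2 (50.0% of the members, 21.1% of all genes), and no member was highest in mdx HRTΔIKKβ replicate 3.

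Genes that assemble, feed or regulate the proteasome were read from lists of their own, and none passed an adjusted p of 0.05. Of 8 measured assembly chaperones, 2 had a higher and 6 a lower mean (median -0.050). Psmd9, a chaperone of base assembly, was at 8.51, 8.50, 8.48 and 8.52 in mdx HRTΔIKKβ hearts, against 8.69, 8.59 and 8.62 in mdx IKKβf/f hearts. Its groups did not overlap (difference -0.13 ± 0.05, limma unadjusted p = 0.029, adjusted p = 0.796), and averaging its 3 probe sets gave -0.06. It was the only 1 of the 8 without overlap (background 2.62% of all genes, lower) or at an unadjusted limma p under 0.05 (background 2.95%, lower). Psmg3 and Psmg2, which help to build the alpha ring, differed by 0.12 ± 0.09 (0.04 with its probe sets averaged) and -0.07 ± 0.06.

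Among the inducible catalytic subunits that replace the constitutive ones in the immunoproteasome, Psmb9 differed by -0.19 ± 0.16, Psmb10 by -0.10 ± 0.08 and Psmb8 by 0.02 ± 0.13. All 3 overlapped between the groups. None had an interval within 1.2-fold either way (background 50.5% of all genes), Psmb10 missing it narrowly with an interval of -0.27 to 0.08. Of 9 measured ubiquitin receptors and deubiquitinases, 4 had a higher and 5 a lower mean, and none was at an unadjusted p under 0.05. The ubiquitin shuttle genes Rad23b and Ubqln2 differed by 0.14 ± 0.08 and -0.13 ± 0.11, and by 0.07 and -0.01 with their probe sets averaged. The proteasome-bound thioredoxin Txnl1 differed by 0.10 ± 0.06, and by 0.07 with its probe sets averaged.

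The route by which cells adjust proteasome gene expression was measured through 6 genes, of which 4 had a higher and 2 a lower mean. Nfe2l1 was at 11.62, 11.67, 11.62 and 11.57 in mdx HRTΔIKKβ hearts, against 11.62, 11.55 and 11.67 in mdx IKKβf/f hearts (difference 0.01 ± 0.05). Its groups overlapped, with the lowest and the highest but 1 value both in the mdx IKKβf/f group. Nfe2l2 differed by 0.11 ± 0.06 (0.02 with its probe sets averaged), and Ufd1, a cofactor of Vcp, by -0.01 ± 0.05. Vcp, the ATPase that extracts ubiquitinated proteins for the proteasome and also releases Nfe2l1 from its membrane, was at 12.90, 12.88, 12.93 and 12.92 in mdx HRTΔIKKβ hearts, against 13.01, 12.99 and 13.04 in mdx IKKβf/f hearts. The groups did not overlap (difference -0.11 ± 0.05, limma unadjusted p = 0.0497, adjusted p = 0.796), and the difference was -0.08 with its 2 probe sets averaged. Vcp was the only 1 of the 6 without overlap (background 2.62% of all genes, lower) or at an unadjusted limma p under 0.05 (background 2.95%, lower). Of 6 genes for ubiquitin and its activating enzymes, only Uba6 had a probe set of its own (0.08 ± 0.09).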

How the data were processed

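Whole-heart RNA of 4 mdx HRTΔIKKβ and 3 mdx IKKβf/f mice was measured on Affymetrix arrays. The deposited log2 values were computed by the authors with RMA (background correction, quantile normalization, summary per probe set). The methods and the submitters' notes name RMA, Partek and Affymetrix Expression Console, without versions and without stating which made the table. RMA compresses folds, most in dim probe sets, and a shift common to all RNA would be lost in the quantile step. Array intensities have no read depth, and the number of arrays limits the precision. The arrays measured RNA, and neither protein nor assembled proteasomes.

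All 45037 probe sets were fitted with limma 3.58.1 (lmFit, eBayes; R 4.3.3) without a filter, and two-sided p-values were adjusted over all of them by Benjamini-Hochberg. The procedure was tested on simulated data. Genes were named through the platform annotation, which can be old: 34945 probe sets had 1 gene, 932 several and 9160 none, and only the first kind was used. Roles, pathway lists and cell type markers came from textbook knowledge, and the members and lists were chosen with earlier results of these data known. Values by heart are given for Psmb5, Psmb6, Psmb7 and Psmd14, for the 2 members per role that had the smallest unadjusted p, and for members whose groups did not overlap, and of each pathway list up to 3 genes with the smallest unadjusted p are named, with Nfe2l1. Values by heart of Psmd9 and Vcp were added after they were seen. No replicate number pairs the hearts, and the fit had no block. Replicates are biological, per the study. Alternatives were array centring, a second quantile normalization, filters on dim or cross-hybridizing probe sets, averaged probe sets, other variance models, the methods' t-test, a block and leaving out each heart. Promoters came from RefSeq (GRCm38.p6).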

Additional observations from a re-analysis of the deposited data

Results flagged for a closer look

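In 48 sets of 4 mdx HRTΔIKKβ values, 1 for each member and named pathway gene, 2 had a heart far from the other 3 by Dixon's criterion, which chance alone meets in about 1 of 20 sets. Psmb6 was at 12.08 in mdx HRTΔIKKβ replicate 2, with the other 3 hearts between 11.99 and 12.00 (gap over range 0.869). Psmc5 was at 11.38 in the same heart, with the other 3 between 11.28 and 11.30 (gap over range 0.873). That heart also had the highest neutrophil (3.22), adipocyte (1.49), lymphocyte (1.26) and endothelial (0.21) marker scores. The neutrophil score was 3.09 in mdx IKKβf/f replicate 1, where Psmb6 and Psmc5 were at 11.95 and 11.25. The part of these cell types in the Psmb6 and Psmc5 values was not tested.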

How the results depend on the processing

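No member was called in either direction at an adjusted p of 0.05 under any alternative (smallest adjusted p 0.653). Members lower at an unadjusted p under 0.05 numbered 1 in place of 2 with dim probe sets left out, with robust eBayes and with a replicate block, and 0 to 2 when 1 heart was left out (0 if that was mdx IKKβf/f replicate 1 or 2). Under the replicate block, in which mdx HRTΔIKKβ replicate 4 has no partner and so does not enter the difference, 14 members had a higher mean and the median was -0.017. Same-numbered hearts deviated from their group means with correlations of -0.08, -0.38 and -0.04. Members that did not overlap and were lower numbered 4 with probe sets averaged and 2 to 5 with 1 heart left out (4 without mdx HRTΔIKKβ replicate 4, 5 without mdx IKKβf/f replicate 3), and those higher 0 to 2. Groups of fewer hearts separate more easily by chance. Under these alternatives, neither the share of all genes without overlap nor that at an unadjusted p under 0.05 was counted. Both kinds of count therefore have no background beside them. Members with a higher mean numbered 8 to 17 with 1 heart left out, the ends being reached with mdx IKKβf/f replicate 3 and replicate 2 left out, and 8 after a second quantile normalization of all 7 hearts. Of all genes, 47.9%, 51.7% and 44.5% had a higher mean in these settings, in that order. The base median was -0.058 after a second quantile normalization, which put the median of all genes at -0.013. With 1 heart left out the alpha ring median ran from -0.082 to -0.013 and the beta ring median from -0.014 to 0.053. Of 833 recomputed gene differences, 822 moved by less than the spread within groups and 11 by more. Of the members, 16 changed sign under some alternative and 18 kept it. The causes of these shifts were not tested. With 4 against 3 arrays, each interval above gives the differences that the values of that gene leave possible, before adjustment. It is not the smallest difference that could be called. A call needed an adjusted p under 0.05, which no probe set on the array reached.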
